A study of Mus musculus with 10 samples.

Results

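The 10 circadian clock genes *Arntl*, *Clock*, *Per1*, *Per2*, *Cry1*, *Ciart*, *Nr1d1*, *Nr1d2*, *Dbp* and *Tef* were followed in the spinal cord of mice. They are core clock genes and factors at the clock's output, and they were taken by symbol from the deposited table of gene expression. All 10 were found among its 25232 genes. The libraries came from 5 WT and 5 SOD1 G93A female mice of 90 days on a C57BL/6 background. The SOD1 G93A mice carry many copies of a human *SOD1* transgene with a mutation found in familial amyotrophic lateral sclerosis, and the WT mice were their littermates. The methods name the lumbar region as the tissue and a cycle of light and dark in the animal room, and the hour at which the mice were killed is not given in the sources used here.

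The value used for each gene is the base mean, which is the authors' mean over all 10 libraries of the read counts divided by a size factor for each library. It is 1 value per gene over both genotypes. The other measurements of the table are the outcome of the authors' own comparison of the genotypes and were not used here, so levels are described and no difference between SOD1 G93A and WT mice is given. The spread between mice is not known from a base mean, and no order of levels could be tested against it. The tissue holds many cell types, and a level in it does not tell how many cells express a gene from how much RNA each cell holds.

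The mammalian clock is a feedback loop of transcription. The products of *Arntl* (known too as *Bmal1*) and *Clock* pair up, bind the E-box and switch on the *Per* and *Cry* genes, whose products then repress that pair, and the product of *Ciart* (known too as Chrono) represses it as well. A second loop runs through the nuclear receptors of *Nr1d1* and *Nr1d2* (REV-ERB alpha and beta), which repress *Arntl* through the ROR element, where the ROR receptors activate. *Dbp* and *Tef*, with their relative *Hlf*, encode PAR bZIP factors that pass the rhythm on through the D-box, where the product of *Nfil3* represses. In tissues with a running clock the mRNA of many of these genes rises and falls over the day.

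The promoters of the members are shown for the elements through which the loop acts. RefSeq windows of 300 bases, from 250 before to 50 after an annotated start on GRCm38.p6, were held for 9 of the 10 members, in 14 windows. *Per2* was not among them. The E-box CACGTG, which reads alike on both strands, was found in the windows of 4 of the 9 members, *Per1*, *Cry1*, *Ciart* and *Tef*. Of all 27025 genes with a window, 8.09% held it. Of the 16 other clock genes described below, 13 had a window, and 1 of them, *Bhlhe41*, held an E-box. Counted by window, 5 of the 14 members' windows (35.7%) and 7.15% of all 32851 windows held an E-box. *Ciart* held 3 E-boxes within 100 bases, at −116, −58 and −44 from its start. At least 3 E-boxes were found in 29 of all windows, or 0.0883%. The stretch of *Ciart* that holds them lies at chr3:95882260-95882359 on the minus strand of GRCm38.p6 and is printed 5′ to 3′ with the E-boxes in capitals.
Ciart: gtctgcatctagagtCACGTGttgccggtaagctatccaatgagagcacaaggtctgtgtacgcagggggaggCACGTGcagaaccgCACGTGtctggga

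The E-boxes of the other 3 genes are printed in the same way, each with the bases around it. The 6 letters of the element are shared because they were searched for, and the flanks differ. The one of *Per1*, before the first of its 2 starts, lies at chr11:69098771-69098800 on the plus strand and that of *Cry1* at chr10:85185097-85185126 on the minus strand. *Tef* has an E-box before each of its 2 starts, at chr15:81802534-81802563 and chr15:81811264-81811293 on the plus strand.
Per1: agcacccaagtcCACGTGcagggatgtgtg
Cry1: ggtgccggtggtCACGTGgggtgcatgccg
Tef start 1: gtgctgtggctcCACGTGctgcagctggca
Tef start 2: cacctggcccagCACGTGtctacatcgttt

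The E-boxes of *Per1*, *Cry1* and *Tef* begin at −166, −60, −127 and −138 from their starts, so that all 7 E-boxes of the members lie before a start. The related form CACGTT, searched on both strands, was found for 2 members. It lies at −79 in *Cry1*, 19 bases further from the start than the E-box of that gene, and at −28 in *Nr1d1*. Among all genes with a window, 5.44% held this form, and of the 13 other clock genes with a window 2 did, *Cry2* and *Rorb*. *Clock*, *Dbp*, *Arntl* and *Nr1d2* held neither form in their windows. Sequence outside the windows was not searched, so these genes may hold either form elsewhere.

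The ROR element was searched as TAGGTCA on both strands. It was found for 1 of the 9 members, *Arntl*, a gene that the receptors of the second loop are known to act on. Of all genes with a window, 2.97% held it. Of the 13 other clock genes with a window, 1 held it, *Nfil3*, at −12 from its start. In *Arntl* the element lies at +31 from the second of the 2 annotated starts, with the first transcribed base as +1. No member thus held it before a start. With its surroundings it stands at chr7:113207530-113207559 on the plus strand, and the element is in capitals.
Arntl: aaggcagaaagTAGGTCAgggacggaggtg

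The last 6 letters of the element alone, AGGTCA, were found for 4 members, *Arntl*, *Clock*, *Per1* and *Nr1d2*, against 18.1% of all genes, and every match to the longer form is counted among these. The D-box, searched as TTANGTAA on both strands, was found for 0 of the 9 members and 2.72% of all genes. It was found for 3 of the 13 other clock genes with a window, *Per3*, *Rorb* and *Timeless*. The cAMP element TGACGTCA was found for 0 of the 9, for 1 of the 13 others, *Hlf*, and for 2.03% of all genes. Such matches are letters in a window and do not show that a factor was bound. A window without a match does not show that the gene lacks the element. The members' windows had a median of 62.7% G and C, from 47.0% to 76.7%, where the median of all windows was 52.7%. The dinucleotide CG was counted 20.5 times in the median window of the members and 7 times in the median of all windows. The windows of the other clock genes ran from 41.0% G and C (*Rorb*, second start) to 81.7% (*Nfil3*). Their CG counts ran from 2 (*Arntl2*) to 54 (*Nfil3*). The members lay within these ranges, so a high content of G and C or of CG is not particular to them.

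**Figure D1:**
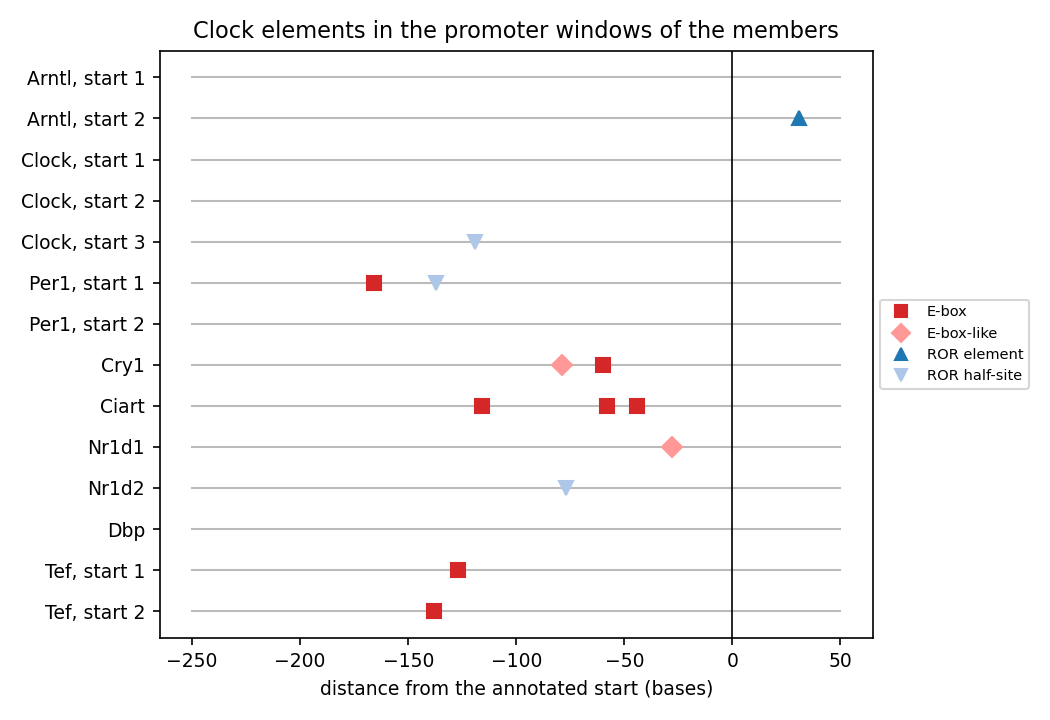
Positions of the clock elements in the 14 promoter windows of the 9 members that have one, in bases from the annotated start (vertical line), with each grey line a window and each symbol a match on either strand. The 3 E-boxes of *Ciart* stand together before its start, and the ROR element of *Arntl* stands after its second start; the half-site inside that element is not drawn again.

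All 10 members were detected, with base means from 274 to 5437, a 19.9-fold span. The median of the members was 1315, and the median of the 20973 genes with a base mean above 0 was 247. Each of the 10 members was above that median of the genes above 0, *Ciart* only just, at percentile 51.6. Among the 15918 genes whose base mean reached 10, the median was 514, and 7 of the 10 members were above it, all but *Arntl*, *Cry1* and *Ciart*. The base means of the members summed to 18295, of 22158933 over the whole table.

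**Figure D2:**
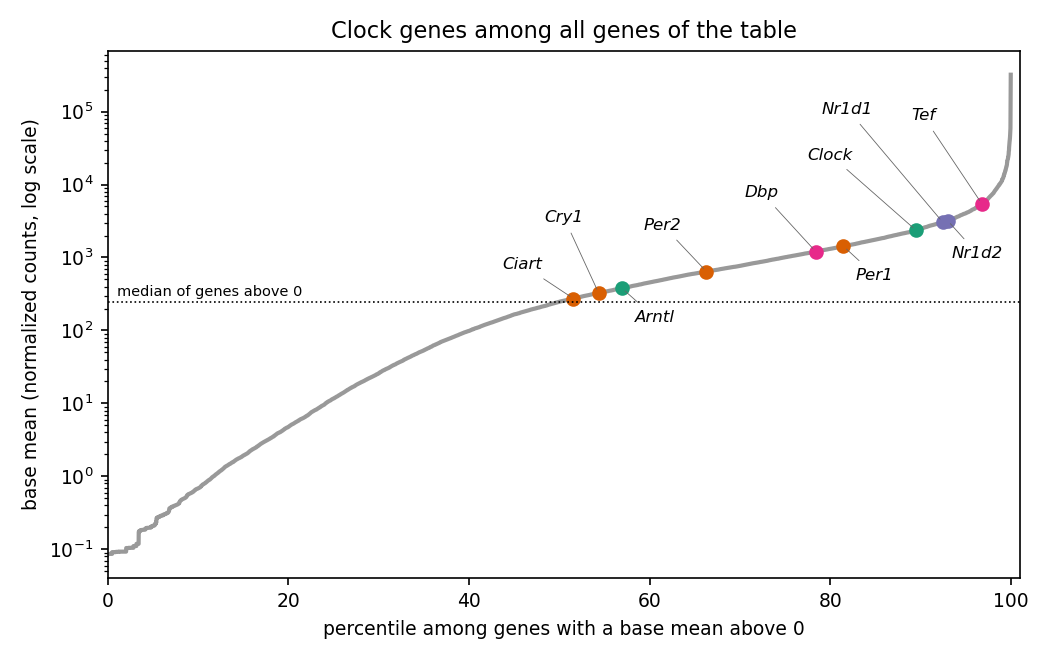
Base mean (log scale) of all genes with a base mean above 0 against their percentile (grey line), with the 10 members as points coloured as in the plot of levels by gene and the median of these genes as a dotted line. *Ciart*, *Cry1* and *Arntl* lie just above the median and *Tef*, *Nr1d2* and *Nr1d1* highest.

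Base means grow with the length of a transcript, so levels of different genes were compared per kb, as the base mean divided by the length of all annotated exons of the gene merged (GENCODE M21 on GRCm38). The 10 members then spanned 50.4 to 989 normalized counts per kb, a 19.6-fold range, with a median of 212. The median of the 20358 genes with a level per kb above 0 was 63.5, and 9 of the 10 members were above it, all but *Arntl*. In descending order the members were *Nr1d1*, *Tef*, *Nr1d2*, *Dbp*, *Per1*, *Clock*, *Ciart*, *Per2*, *Cry1* and *Arntl*. The factors at the clock's output and the REV-ERB receptors thus took the 4 highest places, and the positive arm the sixth and the last. Those 4 stayed the highest under each of the 4 gene lengths tried, although *Tef* stood before *Nr1d1* when the length was that of the transcripts matched to RefSeq. The last place depended on the length too, since over those transcripts *Cry1* was the lowest member, at 108.1 per kb, and *Arntl* took place 8. The hour of killing is not given in the sources used here, and how far the order depends on it was not tested.

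**Figure D3:**
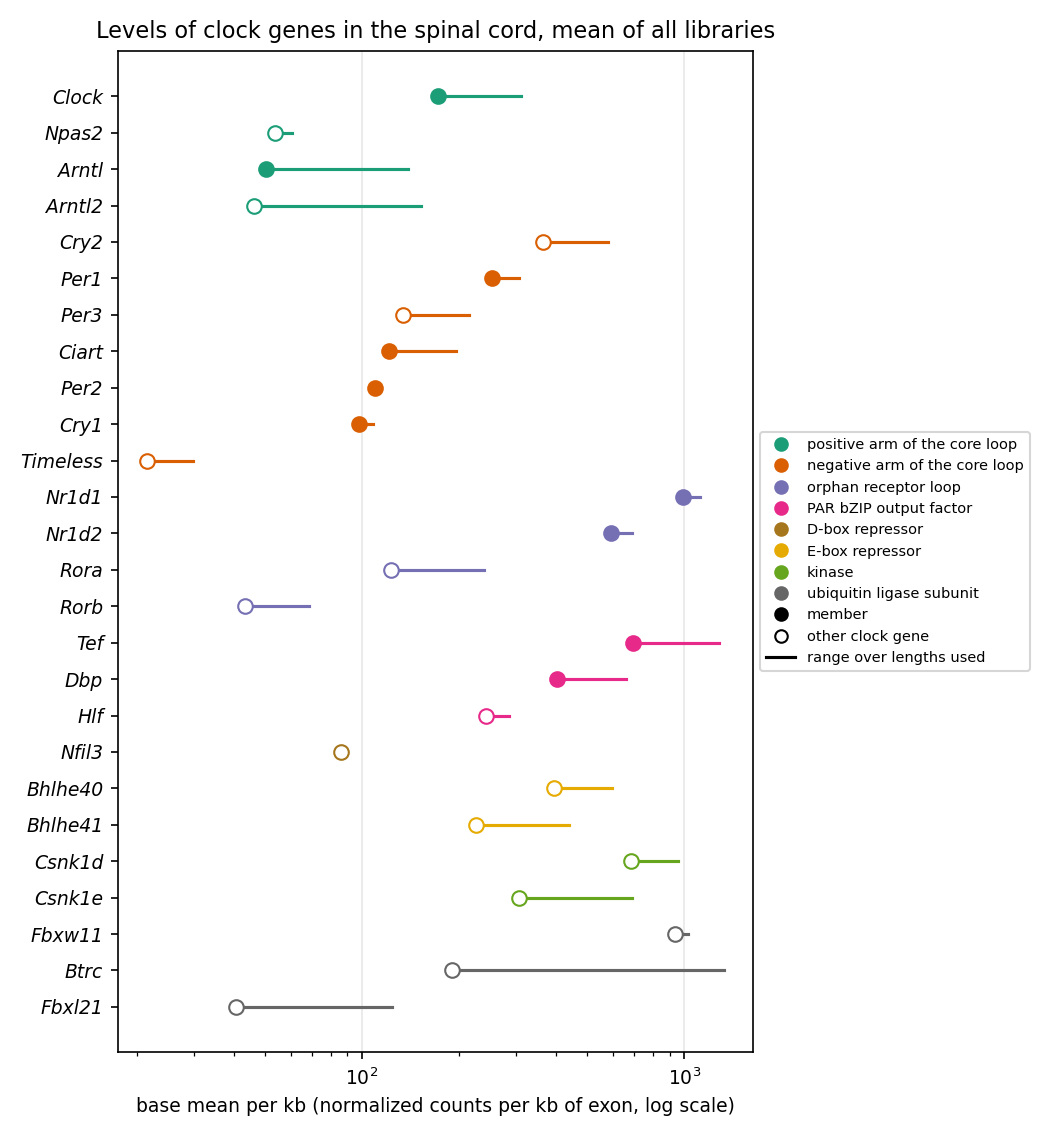
Base mean per kb (log scale) of the 10 members (filled) and 16 other clock genes (open), as the authors' mean of all 10 libraries over the merged exons, grouped by role. Lines give the range over the 4 gene lengths tried and are not errors between mice; the members run from *Arntl* at 50.4 to *Nr1d1* at 989.

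In the positive arm, *Clock* had a base mean of 2355 and was at percentile 89.5 of the genes above 0. *Clock* lies on chromosome 5 from 76209868 to 76304792 and has the longest merged exons of the members, 13727 bases, which gave 172 per kb. *Arntl*, on chromosome 7 from 113207465 to 113314126, had a base mean of 379 at percentile 56.9. Its level was 50.4 per kb over merged exons of 7523 bases, but 130.3 per kb over the longest transcript matched to RefSeq, of 2908 bases. *Clock* was therefore 3.41 times *Arntl* per kb over merged exons and 1.86 times over the longest transcripts. *Npas2*, which can stand in for *Clock*, had 53.6 per kb, and *Clock* was 3.20 to 5.12 times *Npas2* over the gene lengths. *Arntl2*, the relative of *Arntl*, had 46.1 per kb. The ratio of *Arntl* to *Arntl2* was 1.09 over merged exons and 0.865 over the longest transcripts, so that their order depended on the length taken.

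In the negative arm, *Per1* was the highest member. It lies on chromosome 11 from 69095217 to 69109960 and had a base mean of 1424, or 253 per kb. *Per2*, on chromosome 1 from 91415982 to 91459324, had a base mean of 642, or 109.7 per kb. *Per1* was 2.31 to 2.78 times *Per2* over the 4 lengths. *Per3*, the third of the family and not a member, had 133.9 per kb and stood between the other two, at 0.530 to 0.704 times *Per1* and 1.22 to 1.95 times *Per2*. *Cry1*, on chromosome 10 from 85131700 to 85185064, had a base mean of 327 at percentile 54.4 and 97.9 per kb. Its relative *Cry2* had a base mean of 2305 and 365 per kb, 3.73 to 5.36 times *Cry1*. The *Cry* pair thus differed more in level than *Per1* and *Per2* did.

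*Ciart*, on chromosome 3 from 95878503 to 95882251, spans 3749 bases, the smallest gene of the members. It had the lowest base mean, 274, but merged exons of only 2261 bases gave it 121 per kb, above *Per2* and *Cry1*. The gene with 3 E-boxes in its promoter window was therefore seventh of the 10 per kb. The members with an E-box in their window took places 2, 5, 7 and 9 in that order. *Timeless*, often listed with the negative arm, was the lowest of all 26 clock genes at 21.5 per kb.

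The REV-ERB genes were among the highest members. *Nr1d1*, on chromosome 11 from 98767932 to 98775333, had a base mean of 3043 at percentile 92.5. *Nr1d2*, on chromosome 14 from 18204054 to 18239127, had a base mean of 3208 at percentile 92.998. Their base means were alike, with a ratio of *Nr1d2* to *Nr1d1* of 1.05, but *Nr1d2* is longer, and per kb the ratio was 0.5997 (593 against 989), or 0.548 to 0.615 over the lengths. *Rora* and *Rorb*, whose products activate through the same element, were lower. *Rora* had 123 per kb and *Rorb* 43.2, and *Nr1d1* was 8.03 times *Rora* per kb, from 4.68 to 8.72 over the lengths.

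*Nr1d1* shares 263 exon bases, 8.55% of its merged exons, with *Thra*, a thyroid hormone receptor gene on the opposite strand. *Thra* had a base mean of 7824. Over the exon bases that are not shared, the whole base mean of *Nr1d1* gave 1081 per kb, with no reads taken away. The libraries were stranded, but the strand setting of the counting is not given in the sources used here, and reads of the shared bases could have gone to either gene or to neither.

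Of the PAR bZIP factors, *Tef* had the highest base mean of the members, 5437, number 672 of all genes from the top. It lies on chromosome 15 from 81802421 to 81826863 and had 691 per kb. *Dbp*, on chromosome 7 from 45705088 to 45710203, had a base mean of 1207 and 403 per kb. By base mean *Tef* was 4.51 times *Dbp*, and per kb 1.71 times, or 1.44 to 1.95 over the lengths. *Hlf*, the third of the family and not a member, had 242 per kb, 0.5997 times *Dbp* over merged exons, and *Tef* was 2.86 to 4.48 times *Hlf* over the lengths. *Nfil3*, the repressor at the D-box, had a base mean of 174 and 86.1 per kb. *Tef* was 8.03 to 14.9 times *Nfil3* per kb.

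*Dbp* shares 539 exon bases, 18.0% of its merged exons, with *Sphk2*, the gene of a sphingosine kinase on the opposite strand, which had a base mean of 1457. This was the largest overlap among the members. Over the exon bases that are not shared, the whole base mean of *Dbp* gave 492 per kb. *Tef* shares 2.45% of its exon bases with an antisense RNA gene of base mean 15.9, and *Arntl* shares 0.439% with another antisense gene. *Clock*, *Per1*, *Per2*, *Cry1*, *Ciart* and *Nr1d2* share no exon bases with another gene of the annotation.

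**Figure D4:**
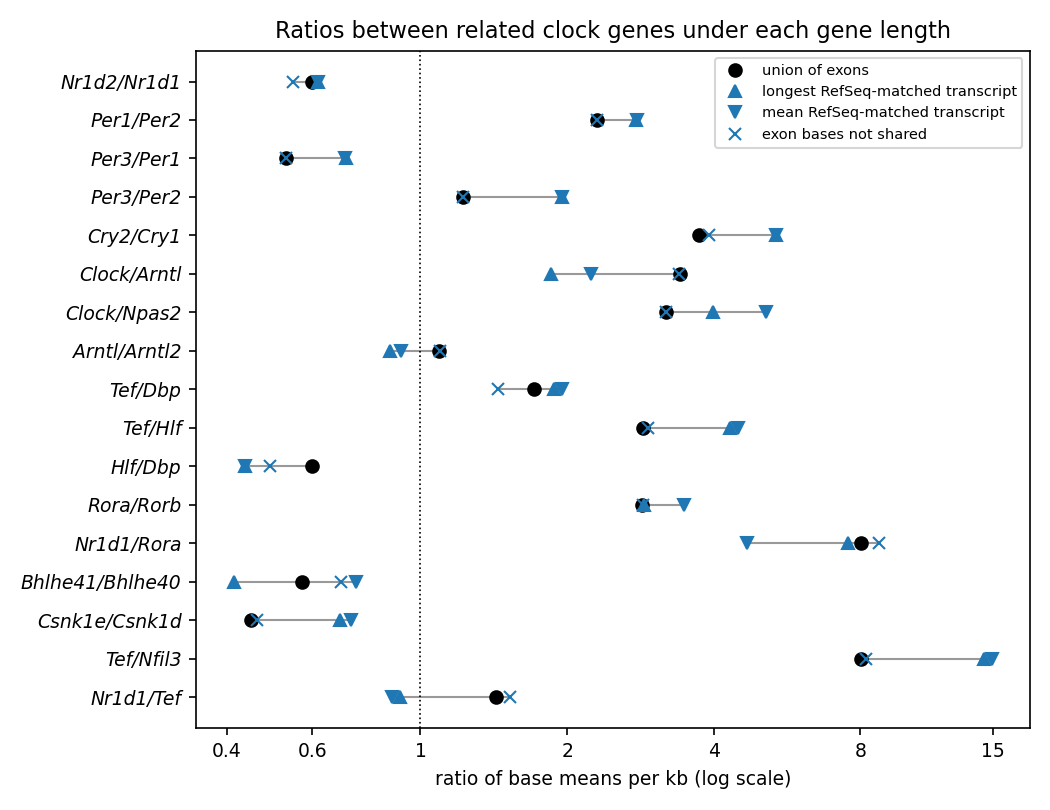
Ratios of base means per kb (log scale) between related or opposed clock genes, under merged exons (black circles) and 3 other gene lengths, with a dotted line at 1. *Arntl*/*Arntl2* and *Nr1d1*/*Tef* cross 1 between lengths and the other 15 of 17 ratios stay on one side; the lines are not errors between mice.

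The 16 other clock genes were all detected, and 13 of them were above the median base mean of the genes above 0. Their median was 1562 by base mean and 162 per kb, against 1315 and 212 for the members. Below the median base mean of the genes above 0 were *Nfil3*, *Fbxl21* and *Timeless*. The kinase genes *Csnk1d* and *Csnk1e*, whose products mark PER proteins for degradation, had 684 and 307 per kb, and the ratio of *Csnk1e* to *Csnk1d* ran from 0.449 to 0.720 over the lengths. *Fbxw11*, a ubiquitin ligase subunit that recognises marked PER proteins, had 933 per kb over merged exons and its relative *Btrc* had 189. Their order depended on the length, with 1005 for *Fbxw11* and 1076 for *Btrc* over the longest transcripts matched to RefSeq. *Fbxl21*, a subunit that acts on CRY proteins, had 40.7 per kb. The E-box repressors *Bhlhe40* and *Bhlhe41* had 394 and 225 per kb.

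The label of the tissue was set beside marker genes. *Hoxa10*, *Hoxc10* and *Hoxd10*, which mark the lumbar cord, had base means from 152 to 489. The motor neuron genes *Chat* and *Slc18a3* had 735 and 1170, and *Mnx1* and *Isl1* 37.3 and 45.6. The forebrain genes *Emx1* and *Neurod6* were at 0.993 and 78.9. The 3 sensory ganglion genes had base means of 8.80 to 86.9 and the 3 skeletal muscle genes 108 to 251. The neuron genes *Snap25* and *Rbfox3* had 59050 and 3498, the choroid plexus gene *Ttr* 37.7 and the liver gene *Alb* 46.8. The blood genes *Hba-a1* and *Hbb-bs* are listed at 0. Only reads with a unique place were counted, and these values do not show that blood was absent. The oligodendrocyte genes had base means from 5348 to 319615 and the astrocyte genes from 16064 to 56290, the microglial genes from 583 to 3041, and the endothelial genes from 631 to 709.8. The part of each cell type in the levels of the clock genes was not tested.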

How the data were processed

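RNA of the spinal cord of 5 WT and 5 SOD1 G93A mice was sequenced. Per the submitters' processing notes and the methods, the authors filtered reads with Fastp, aligned them to mm10 with HISAT2 2.1.0, counted reads with a unique place per gene by featureCounts 2.0.2 and compared the groups with DESeq2. The annotation and the strand setting of the counting are not given in the sources used here. The authors made the signal of the 1 deposited table, the base mean, as the mean over 10 libraries of counts divided by size factors, and it is normalized for depth but not for length. The other 5 columns of numbers (fold change, standard error, Wald statistic, p-value and adjusted p-value) hold the authors' own comparison and were not used. Depth per library and the spread between mice are therefore unknown, and no test or interval was computed.

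Base means were divided by merged exon lengths of GENCODE M21 (GRCm38, the build mm10 denotes). All 10 members and 16 other clock genes matched 1 gene each by symbol. Of the 25232 symbols, 24310 matched 1 gene and gave a level per kb. Percentiles count ties as 0.5. The other lengths were the longest and the mean GENCODE transcript matched to a RefSeq mRNA, and the exon bases not shared with another gene. The base mean was kept whole under each of these lengths. Other alternatives were a base mean minimum of 10, all listed genes, the part of the window before the start and other motif letters. Promoters are RefSeq windows on GRCm38.p6, and motifs were exact matches on both strands. The motif search and the percentiles were tested on simulated data.

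The rule for named genes takes the 10 members, the 16 other clock genes and 32 marker genes, the markers by name or by the range of their list. Of the lists, 3 further genes are not reported here, and overlapping genes were named after their values were seen. The members and lists were chosen with earlier results of these data known. Scripts ran on Python 3.11.15, with tables handled by pandas 2.3.3, arrays by numpy 2.4.6 and plots by matplotlib 3.10.9.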

Additional observations from a re-analysis of the deposited data

How the results depend on the processing

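The levels per kb were varied by gene length alone. The span between the highest and the lowest member per kb was 19.6-fold over merged exons, 11.4-fold over the longest RefSeq-matched transcripts and 11.9-fold over their mean. The level of 5 of the 10 members moved by over 1.5 times in 9 of 30 alternatives, always upwards. That direction was fixed in advance, since none of the other lengths can exceed that of the merged exons. The order turned for 2 of 17 ratios in 4 of 51 alternatives, and 12 others moved a ratio by over 1.5 times without turning the order. *Arntl*/*Arntl2* was 0.865 over the longest and 0.911 over the mean transcripts, and *Nr1d1*/*Tef* was 0.906 and 0.872, where merged exons gave 1.09 and 1.43. Of the 17 ratios, *Nr1d1*/*Tef*, *Clock*/*Arntl*, *Nr1d1*/*Rora* and *Tef*/*Nfil3* were chosen after seeing the data. The number of members with the ROR element went from 1 to 4 when its last 6 letters alone were searched, by the construction of the shorter motif. The number of members above the median level (7 to 10) moved by less than 1.5 times. The number with the E-box CACGTG was 4 in the whole window and in the part before the start. It was 5 when members with CACGTT were counted too, which is also a move of less than 1.5 times. With 1 mean per gene, the spread between mice could not serve as the limit for a moved level, and 1.5 times was used instead. Leaving out replicates could not be run, and no paired analysis was possible because the values used are means over all libraries. A difference in level below the unknown spread between mice cannot be seen here. Whether the levels and ratios depend on the hour of killing was not tested.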
